A study of Mus musculus with 19 samples.

Results

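A set of 10 muscle genes, most of them of the Z-disc or of the intermediate filaments tied to it, was examined in bulk RNA-seq libraries of mouse abdominal aorta. They are Des, Synm, Synpo2, Synpo2l, Ldb3, Pdlim3, Pdlim7, Myo18b, Hrc and Fbxo40, matched by symbol in the count table, and they are 10 of 17617 genes that passed the filter on low counts. All 10 passed it. Several of them were chosen by their normalized counts, which were low in the aortas irradiated after pump implantation, so their levels in that group are given as a description, without a test.

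The study used young adult male Apoe-/- mice on a C57BL/6J background that were fitted with an osmotic pump releasing angiotensin II (AngII), a model of abdominal aortic aneurysm. In the D+1 IR group (7 libraries) the mice received a single whole-body dose of X-rays under anaesthesia 1 day after the pump was placed, in the D-3 IR group (7 libraries) the same dose 3 days before it, and in the control group (5 libraries) the anaesthesia without radiation. All 3 groups thus share the Apoe deletion and the AngII infusion, and no group without AngII was among the libraries. A library is named here by its group and its number in the labels, which do not give the day of sacrifice.

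In striated muscle the Z-disc is the protein plate that anchors the thin filaments of neighbouring sarcomeres, and desmin filaments link one Z-disc to the next and to the cell membrane. Smooth muscle cells have no sarcomeres, but their dense bodies play the same anchoring part and hold several of the same proteins, desmin among them. In an aorta the main muscle is the smooth muscle of the media, while skeletal muscle from the back wall and cardiac muscle are not part of the vessel.

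Total counts in genes ranged between 25839001 and 97083681 in the D+1 IR libraries, between 27407579 and 87410421 in the D-3 IR libraries and between 28758369 and 63767498 in the control libraries. Levels are given as CPM, the counts of a gene scaled to a common library size with TMM factors, and differences as log2 fold changes from edgeR. Their standard error (SE) was computed as the size of the log2 fold change over the square root of the F statistic of its edgeR test. The 95% intervals use this SE and a t distribution with 16 degrees of freedom. The D+1 IR libraries 1, 2 and 3 carry a file number of the series 41, whereas the other 16 libraries carry one of the series 61, and the labels do not say what the numbers stand for. The 20 smooth muscle markers summed to between 3234 and 28907 CPM in D+1 IR, between 18449 and 45868 CPM in D-3 IR and between 11150 and 55717 CPM in control libraries, with none of them at 0 in any library. Skeletal muscle RNA was uneven. Its 25 markers summed to 10962 CPM in the D-3 IR library 10, 4173 CPM in the D-3 IR library 15, 1155 CPM in the D+1 IR library 3 and 1126 CPM in the control library 5, and to between 63.9 and 329 CPM in the other libraries. The 13 cardiac muscle markers summed to between 21.8 and 47.7 CPM in D+1 IR, between 42.8 and 201 CPM in D-3 IR and between 31.1 and 64.1 CPM in control libraries. Nppa was at 0 in 16 of 19 libraries and Myh6 did not exceed 2.39 CPM, whereas Actc1, which skeletal muscle can also express, reached 168 CPM in a D-3 IR library. With these groups, edgeR called 0 of 17617 genes at an adjusted p under 0.05 in any contrast (0.0% each), and at an unadjusted p under 0.05 it counted 2018 genes (11.5%) for D+1 IR against D-3 IR, 1253 genes (7.11%) when D+1 IR was set against control and 232 genes (1.32%) when D-3 IR was. DESeq2 called 10 genes (0.0568%), 2 genes (0.0114%) and 0 genes in these contrasts, and limma voom with sample weights called 2298 genes (13.0%), 0 and 0.

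The RefSeq promoters of the members (GRCm38.p6, 250 bases before to 50 bases after the start) were searched on both strands for the CArG box, the site of serum response factor, and for the MEF2 site, since both are known elements of muscle genes. Of the 10 members 9 had an entry, with 12 promoters in all. The CArG box was found in 1 member, Ldb3, and is held by 1.81% of all genes with a promoter in the table. The MEF2 site was found in 3 members, Synpo2l, Synpo2 and Fbxo40, and is held by 3.70% of all genes. The promoters of these 4 members are shown because they are the ones with either match, with the matched bases in capitals. They lie on the minus strand at chr14:34588632-34588931 (Ldb3), chr14:20668305-20668604 (Synpo2l), chr3:123236100-123236399 (Synpo2) and chr16:36990418-36990717 (Fbxo40).
Ldb3, CArG box: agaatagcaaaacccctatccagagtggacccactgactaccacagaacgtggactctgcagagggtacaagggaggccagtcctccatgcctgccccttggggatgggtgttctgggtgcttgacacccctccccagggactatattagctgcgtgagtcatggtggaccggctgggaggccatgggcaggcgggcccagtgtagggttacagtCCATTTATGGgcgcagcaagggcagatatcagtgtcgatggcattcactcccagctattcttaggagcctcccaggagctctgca
Synpo2l, MEF2 site: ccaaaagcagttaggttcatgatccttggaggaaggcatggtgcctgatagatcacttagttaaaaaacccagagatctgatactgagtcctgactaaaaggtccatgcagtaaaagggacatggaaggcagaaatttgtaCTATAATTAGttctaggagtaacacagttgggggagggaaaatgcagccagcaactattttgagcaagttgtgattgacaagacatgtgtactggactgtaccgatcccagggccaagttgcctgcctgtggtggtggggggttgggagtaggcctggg
Synpo2, MEF2 site: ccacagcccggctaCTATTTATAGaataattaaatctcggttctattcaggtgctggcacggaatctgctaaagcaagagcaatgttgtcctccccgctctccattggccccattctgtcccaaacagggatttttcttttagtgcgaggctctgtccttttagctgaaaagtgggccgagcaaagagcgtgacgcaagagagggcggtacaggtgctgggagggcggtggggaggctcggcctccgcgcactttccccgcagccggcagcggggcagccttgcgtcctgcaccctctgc
Fbxo40, MEF2 site: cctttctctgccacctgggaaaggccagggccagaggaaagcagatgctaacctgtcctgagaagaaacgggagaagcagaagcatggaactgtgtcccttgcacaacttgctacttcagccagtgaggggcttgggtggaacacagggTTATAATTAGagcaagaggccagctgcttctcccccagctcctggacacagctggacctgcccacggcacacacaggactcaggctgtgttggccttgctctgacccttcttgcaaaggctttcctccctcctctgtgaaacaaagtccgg
The CArG box of Ldb3 begins 35 bases before the start. The MEF2 sites begin 109 bases before the start in Synpo2l, 236 in Synpo2 and 101 in Fbxo40, and the other Synpo2l promoter has one too, 144 bases before its own start. Other short motifs were searched as well. The E-box (CANNTG) was present in 7 of the 9 members, against 75.0% of all genes. The GC box (GGGCGG) was present in 5, against 38.2% of all genes. The MCAT element (CATTCC) was present in Pdlim3 alone, against 16.6% of all genes. No CArG or MEF2 match overlapped with a match of another motif in these promoters, and a match is a description of these letters only.

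Per length, the members covered a wide range of levels. On the scale of CPM per kilobase of exon, averaged over the 19 libraries, Des was the highest at 78.5, followed by Pdlim7 at 51.8, Pdlim3 at 37.5, Synpo2 at 18.2, Ldb3 at 12.5, Synm at 9.13, Hrc at 5.47, Fbxo40 at 3.48, Synpo2l at 2.04 and Myo18b at 1.65. Within a library, Pdlim7 was above Pdlim3 and Pdlim3 above Synpo2 in 19 of 19 libraries. Des was above Pdlim7 in 16 of 19 libraries, with a mean log2 difference per kilobase of 0.51 that varied between libraries (SD 0.66). Ldb3 was above Synm in 14 of 19 libraries (0.19, SD 0.78), Hrc above Fbxo40 in 14 (0.54, SD 0.87) and Synpo2l above Myo18b in 13 (0.40, SD 0.68). The SD is the spread between libraries and not the error of the mean, and these differences were not tested.

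In the D+1 IR group all 10 members had a lower fitted level than in either other group. Against D-3 IR the log2 fold changes lay between -2.30 and -0.67 with a median of -1.50, 8 of 10 were under -1, which held for 3.97% of all genes, and 45.4% of all genes were under 0. Against control they lay between -1.59 and -0.40 with a median of -1.11, 7 of 10 were under -1, which held for 4.01% of all genes, and 55.1% of all genes were under 0. Over all genes the medians were 0.04 and -0.04. Since the members were picked for this, nothing is read from these counts, and both contrasts share the D+1 IR libraries. The count against control changed with single libraries. It was 4 of 10 without the D+1 IR library 3, without the D+1 IR library 20 or without the control library 6, and the median was -0.72 without the last of these. Without the D+1 IR libraries 1, 2 and 3 it was also 4 of 10, with a median of -0.73, and against D-3 IR it was then 6 of 10, with a median of -1.15. In bulk RNA, fewer muscle cells and less of a transcript per muscle cell cannot be told apart.

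**Figure D1:**
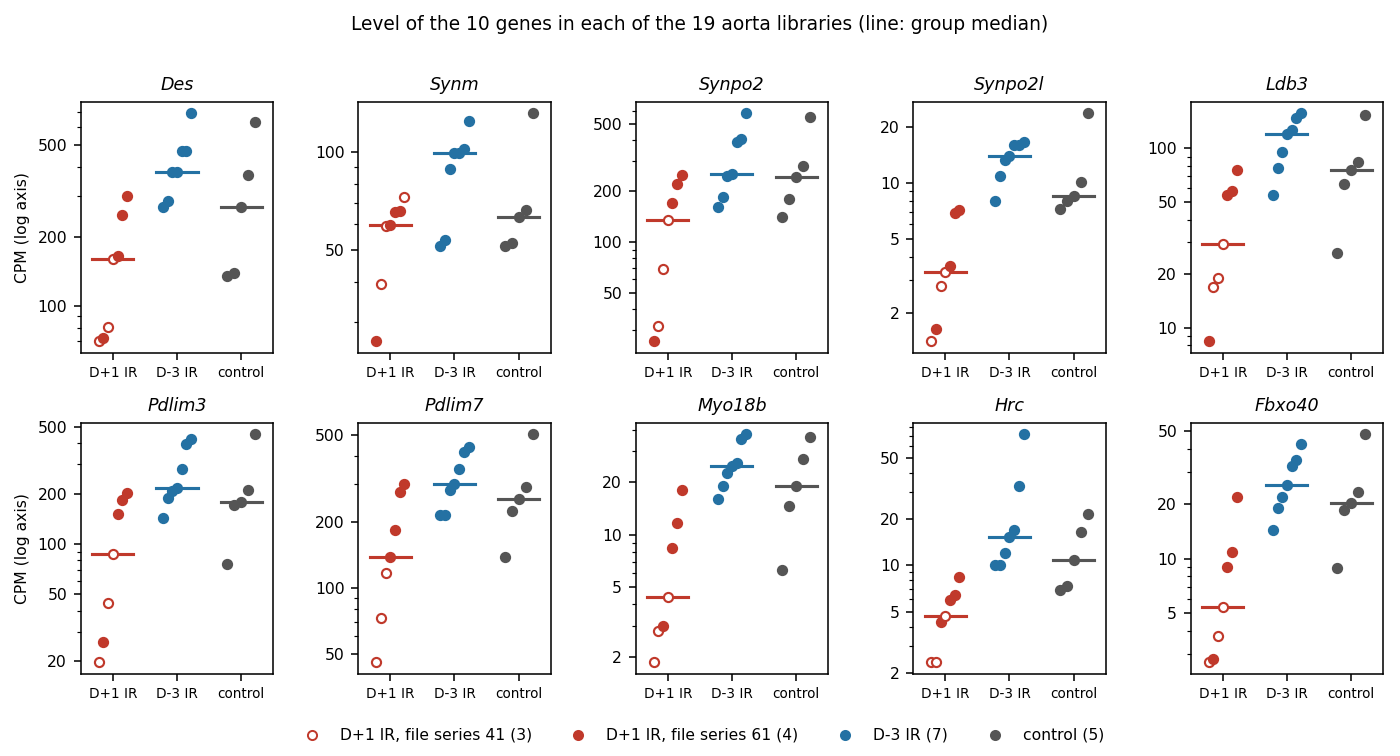
CPM of each of the 10 genes (log axes) in the 7 D+1 IR, 7 D-3 IR and 5 control libraries, 1 point per library, with open points for the D+1 IR libraries 1, 2 and 3 and a line at each group median. Only for Synpo2l do all 7 D+1 IR points lie below every point of both other groups.

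The intermediate filament members were desmin and synemin. Des (ENSMUSG00000026208.10, chr1:75360329-75368579, GRCm38) encodes desmin, the filament protein of all muscle types. It had a lowest, median and highest level of 70.2, 159.6 and 301 CPM in D+1 IR and of 270.3, 384 and 690.4 CPM in D-3 IR, against 139, 371, 631, 135 and 269.5 CPM in the control libraries 4, 5, 6, 8 and 9. The groups overlapped, although 6 of the 7 D+1 IR libraries lay below every D-3 IR library. The log2 fold change was -1.43 (SE 0.40) for D+1 IR against D-3 IR and -0.98 (SE 0.42) for D+1 IR against control.

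Synm (ENSMUSG00000030554.17, chr7:67730160-67759742), synemin, is a large filament protein that assembles only together with desmin or vimentin. Its levels were 26.2, 59.9 and 72.7 CPM (lowest, median and highest) in D+1 IR and 51.6, 99.6 and 125 CPM in D-3 IR, against 52.6, 66.5, 132, 63.2 and 51.6 CPM in the control libraries 4, 5, 6, 8 and 9. It was the member with the smallest difference, -0.67 (SE 0.26) on the log2 scale for D+1 IR against D-3 IR and -0.40 (SE 0.28) for D+1 IR against control, and 5 of the 7 D+1 IR libraries were within the range of the control libraries or above it. An exon of Synm overlaps one of Ttc23 on the other strand, and the counts used do not separate strands. Ttc23 had 13621 counts over all libraries against 64638 for Synm, and its part in the Synm level was not tested.

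Among the actin-binding members, Synpo2 (ENSMUSG00000050315.15, chr3:123076519-123236149) encodes myopodin, an actin-bundling protein of the Z-disc that smooth muscle makes as well. It reached 25.8, 135 and 249 CPM (lowest, median and highest) in D+1 IR and 160.3, 252 and 581 CPM in D-3 IR, against 140.1, 244, 553, 280.3 and 179 CPM in the control libraries 4, 5, 6, 8 and 9. Only 4 of the 7 D+1 IR libraries lay below the lowest D-3 IR library, and the same number below the lowest control library. The fitted difference was -1.30 (SE 0.48) against D-3 IR and -1.12 (SE 0.51) against control.

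Synpo2l (ENSMUSG00000039376.14, chr14:20658946-20668354), its relative with high expression in heart and skeletal muscle, had lower levels per length. Its lowest, median and highest levels were 1.42, 3.32 and 7.16 CPM in D+1 IR and 8.02, 13.9 and 16.5 CPM in D-3 IR, and the control libraries 4, 5, 6, 8 and 9 had 8.03, 10.1, 23.7, 7.27 and 8.54 CPM. It was the single member whose D+1 IR libraries all lay below every library of both other groups, although the gap to the control library 8 was small. Every D+1 IR library was below every D-3 IR library in 0.119% of all genes and below every control library in 0.102%. The log2 fold change was -1.81 (SE 0.37) for D+1 IR against D-3 IR and -1.59 (SE 0.39) for D+1 IR against control.

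The PDZ-LIM members bind alpha-actinin with their PDZ domain and signalling proteins with their LIM domains. Ldb3 (ENSMUSG00000021798.15, chr14:34526603-34588682), also called Cypher or ZASP, keeps the Z-disc stable under load. Its levels were 8.42, 29.2 and 76.1 CPM (lowest, median and highest) in D+1 IR and 55.0, 120.5 and 157 CPM in D-3 IR, against 26.1, 84.3, 153, 63.4 and 75.9 CPM in the control libraries 4, 5, 6, 8 and 9. The D+1 IR library 17 exceeded 3 of the control libraries. The fitted difference was -1.57 (SE 0.44) against D-3 IR and -1.10 (SE 0.47) against control.

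Pdlim3 (ENSMUSG00000031636.8, chr8:45885461-45919548), the actinin-associated LIM protein ALP, had 19.6, 87.8 and 203 CPM (lowest, median and highest) in D+1 IR and 144, 218 and 422 CPM in D-3 IR. The control libraries 4, 5, 6, 8 and 9 had 76.5, 211, 455, 171 and 179 CPM. Pdlim7 (ENSMUSG00000021493.16, chr13:55495795-55513676), known as Enigma and made in many tissues, had 45.6, 139 and 299 CPM in D+1 IR and 216, 298 and 441 CPM in D-3 IR, against 138, 256, 505, 226 and 290.3 CPM in the same control libraries. For both, 3 of the 7 D+1 IR libraries lay below every control library. The log2 fold changes of Pdlim3 were -1.38 (SE 0.50) against D-3 IR and -1.10 (SE 0.53) against control, and those of Pdlim7 were -0.97 (SE 0.37) and -0.81 (SE 0.39).

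Myo18b (ENSMUSG00000072720.10, chr5:112688876-112896362) encodes an unconventional myosin that mice and zebrafish need to assemble sarcomeres. Its levels were 1.86, 4.39 and 18.0 CPM (lowest, median and highest) in D+1 IR and 16.1, 24.8 and 37.7 CPM in D-3 IR, against 6.30, 27.2, 36.5, 14.5 and 19.1 CPM in the control libraries 4, 5, 6, 8 and 9. All 7 D+1 IR libraries were below the control median and 4 were below the lowest control library. The fitted difference was -1.85 (SE 0.47) against D-3 IR and -1.53 (SE 0.49) against control.

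Hrc (ENSMUSG00000038239.12, chr7:45335290-45338974) is not a Z-disc protein but a calcium-binding protein inside the sarcoplasmic reticulum, where it binds triadin and the calcium pump. It had 2.34, 4.70 and 8.40 CPM (lowest, median and highest) in D+1 IR and 10.1, 15.3 and 71.7 CPM in D-3 IR, against 6.96, 16.4, 21.6, 7.40 and 10.9 CPM in the control libraries 4, 5, 6, 8 and 9. The D+1 IR libraries all lay below the D-3 IR libraries but overlapped with the control libraries. Its fitted difference of -2.30 (SE 0.47) against D-3 IR was the largest of the 10, and the D-3 IR libraries 10 and 15, with the most skeletal muscle marker RNA, were also the highest for Hrc, at 71.7 and 33.0 CPM. Without these libraries and the D+1 IR library 3 the difference was -1.38. Against control it was -1.36 (SE 0.49), and -1.35 without the same libraries.

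Fbxo40 (ENSMUSG00000047746.15, chr16:36963460-36990467) encodes the muscle F-box protein that, in mice, marks the insulin receptor substrate IRS1 for breakdown. Its levels were 2.695, 5.401 and 21.8 CPM (lowest, median and highest) in D+1 IR and 14.4, 25.4 and 42.6 CPM in D-3 IR, against 8.84, 18.4, 48.1, 20.3 and 23.1 CPM in the control libraries 4, 5, 6, 8 and 9. The D+1 IR library 19, at 21.8 CPM, stood apart from the other 6, the highest of which had 10.9 CPM. The fitted difference was -1.75 (SE 0.46) against D-3 IR and -1.56 (SE 0.49) against control.

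**Figure D2:**
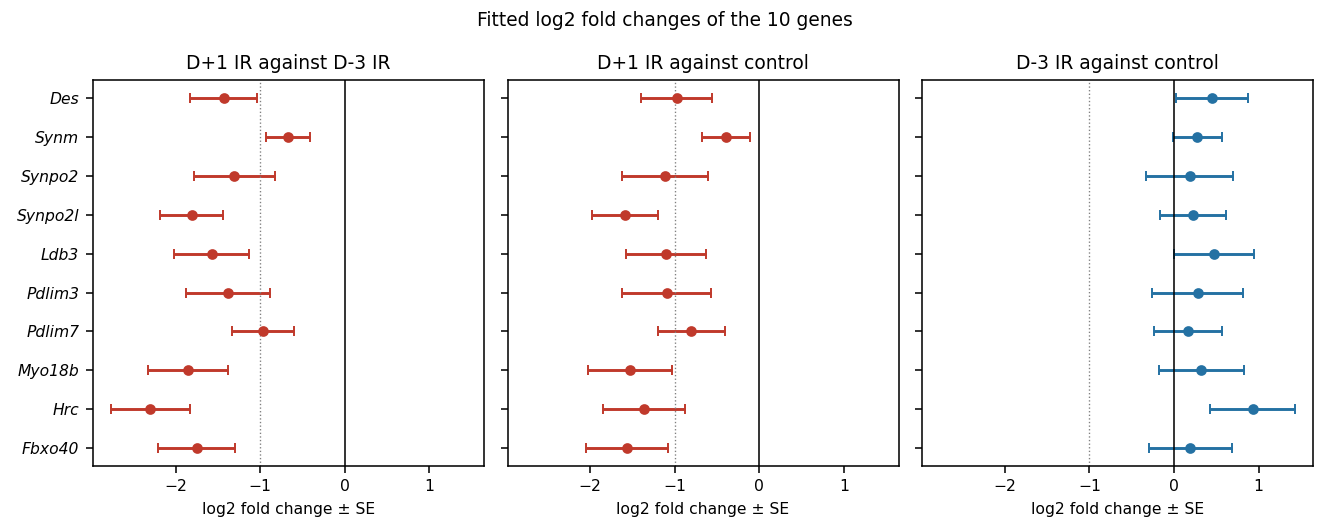
Log2 fold changes of the 10 genes with their SE in the edgeR fit over all 19 libraries, in panels for D+1 IR against D-3 IR, D+1 IR against control, then D-3 IR against control, with a dotted line at -1. In the contrasts of D+1 IR all points lie left of 0, with Synm nearest to it, and for D-3 IR against control all lie between 0.17 and 0.93.

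Irradiation before the pump was the contrast that the choice of members did not use. In D-3 IR against control all 10 members had a positive log2 fold change, between 0.17 and 0.93 with a median of 0.28, and 43.1% of all genes had one above 0. None passed the test. With edgeR 0 of 10 were called at an adjusted p under 0.05 (0.0% of all genes) and 0 of 10 at an unadjusted p under 0.05 (1.32% of all genes), and DESeq2 and limma voom with sample weights also called 0. The largest difference was that of Hrc, at 0.93 (SE 0.50, 95% interval -0.13 to 2.00). Its adjusted edgeR p was 0.99999, like that of the other 9. The Hrc difference was 0.36 without the D-3 IR library 10 and 0.03 without the 3 libraries richest in skeletal muscle marker RNA (D-3 IR 10 and 15 and D+1 IR 3). Ldb3 and Des followed at 0.47 (SE 0.48) and 0.45 (SE 0.43). Synpo2l, with 8.02 to 16.5 CPM in D-3 IR and 7.27 to 23.7 CPM in control libraries, differed by 0.22 (95% interval -0.61 to 1.06). These intervals do not show that the groups were alike.

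Within D+1 IR the libraries fell far apart. When each member's log2 CPM was standardized over the 19 libraries and averaged over the 10 members, the D+1 IR libraries 20, 3, 1 and 2 had the lowest means of all libraries, at -1.78, -1.63, -1.40 and -1.0045. The mean was 0.12 in the D+1 IR library 17, -0.14 in library 18 and -0.13 in library 19, inside the range of the control libraries, which ran between -0.58 for library 4 and 1.32 for library 6. In the D-3 IR libraries it was between 0.02 and 0.99. The 4 lowest libraries include all 3 of file series 41 and 1 of the 4 D+1 IR libraries of series 61.

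The D+1 IR libraries of the 2 file series are set side by side as a description, since their levels entered the choice of members. In series 41 against series 61, 9 of 10 members had a negative fitted log2 fold change, with a median of -1.14, and 56.9% of all genes had one. Over all genes edgeR called 0 of 18644 at an adjusted p under 0.05 (0.0%), with 2297 (12.3%) at an unadjusted p under 0.05, and DESeq2 called 302 (1.62%). The largest of the members' values were those of Myo18b (-1.78, SE 0.57), Pdlim7 (-1.52, SE 0.42), Fbxo40 (-1.50, SE 0.59) and Pdlim3 (-1.49, SE 0.66). Pdlim7 had 45.6, 73.2 and 118 CPM in the 3 libraries of series 41 and between 139 and 299 CPM in the 4 of series 61. Synm was at 0.06 (SE 0.38). The smooth muscle markers summed to 6883, 13600 and 3234 CPM in the D+1 IR libraries 1, 2 and 3 and to 28907, 22218, 21164 and 5499.9 CPM in the D+1 IR libraries 17, 18, 19 and 20. White adipocyte markers summed to between 17476 and 24737 CPM in the libraries of series 41 and to between 4041 and 13990 CPM in the D+1 IR libraries of series 61. The part of either cell type in the split was not tested, and the file number and the mice cannot be told apart.

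The levels of the members were then set beside muscle content. Over the 19 libraries the log2 CPM of each member was correlated with the log2 summed level of the 20 smooth muscle markers and with that of the 25 skeletal muscle markers, which makes 20 relations. They are given as descriptions with no test, since the D+1 IR levels entered the choice of members, the smooth muscle markers had low levels in the same group, and all values of a library share its normalization. With the smooth muscle markers r was between 0.62 and 0.99 and rho between 0.67 and 0.97. Pdlim3 lay closest to them, with r = 0.99 and rho = 0.97. Synpo2 (r = 0.96, rho = 0.92), Pdlim7 (r = 0.95, rho = 0.95) and Ldb3 (r = 0.93, rho = 0.93) came next. Hrc had the lowest r, at 0.62, with rho = 0.72.

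Leaving out the 2 libraries farthest from the median, the D+1 IR libraries 20 and 3, gave r between 0.61 and 0.99, and the 16 libraries of series 61 alone gave r between 0.49 for Hrc and 0.99 for Pdlim3. With the group means taken off, r was 0.99 for Pdlim3, 0.94 for Synpo2 and 0.92 for Pdlim7, and it was 0.59 for Des and 0.32 for Hrc. Within the 7 D-3 IR libraries alone it was 0.98 for Pdlim3, 0.21 for Des and -0.17 for Hrc. Without the 3 libraries richest in skeletal muscle marker RNA, r over the other 16 was 0.91 for Des and 0.82 for Hrc.

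**Figure D3:**
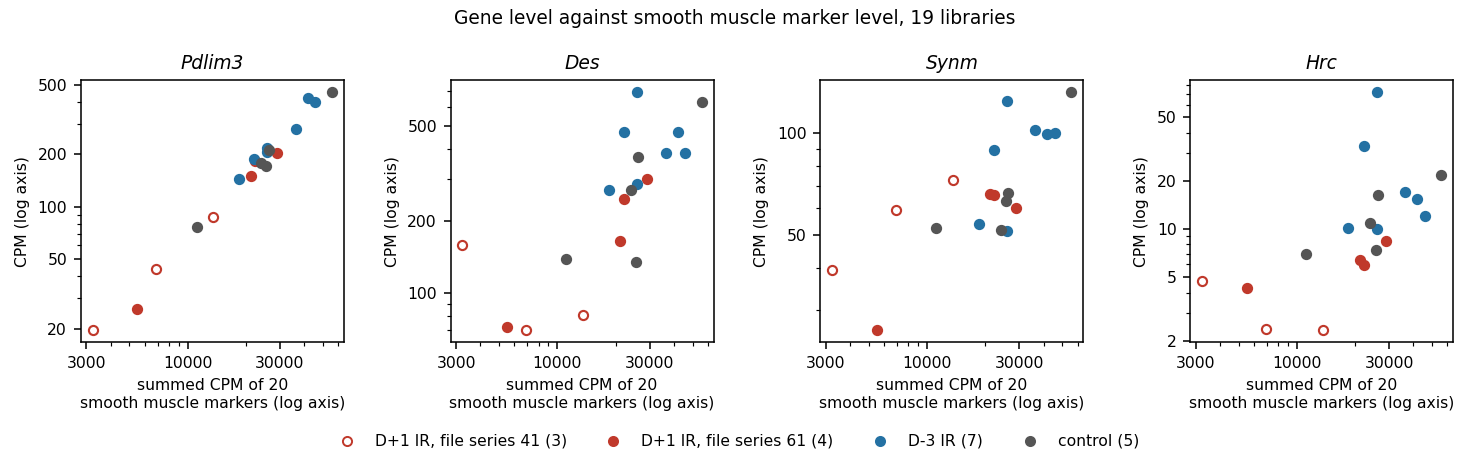
CPM of Pdlim3, Des, Synm and Hrc against the summed CPM of 20 smooth muscle markers (both log axes), 1 point per library, with open points for the D+1 IR libraries 1, 2 and 3. Pdlim3 lies close to a line (r = 0.99), whereas in Des and Hrc the D-3 IR library 10, at 690.4 and 71.7 CPM, lies above the other libraries of like smooth muscle content.

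With the skeletal muscle markers r was between 0.01 and 0.68. The highest values were those of Hrc (r = 0.68, rho = 0.58) and Des (r = 0.54, rho = 0.65), and Myo18b followed with r = 0.38 and rho = 0.52. Without the D-3 IR libraries 10 and 15, the farthest from the median, r was 0.28 for Hrc and 0.34 for Des. With the D+1 IR library 3 left out as well, r was 0.52 for Hrc and 0.51 for Des. Between the smooth and skeletal muscle marker sums themselves no relation was detectable over 19 libraries (r = 0.01, permutation p = 0.957, rho = 0.31, permutation p = 0.202).

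Members were also set against the smooth muscle markers directly, as CPM per 1000 CPM of those markers. On that scale the difference of group means in log2, D+1 IR minus D-3 IR, was negative for 8 members and positive for 2, with a median of -0.42. The same difference of mean log2 CPM, without the scaling, had a median of -1.80. The negative values farthest from 0 were those of Myo18b (-0.84), Fbxo40 (-0.67), Hrc (-0.67) and Synpo2l (-0.63). Des (-0.19) and Synpo2 (-0.22) were nearer to 0, and Pdlim7 (0.21) and Synm (0.71) were positive. For D+1 IR minus control 7 were negative, and Des (0.22), Synm (0.79) and Pdlim7 (0.22) were positive. The median was -0.20, and without the scaling it was -1.36. The sign of Des against control rested on the D+1 IR library 3. Its mean scaled log2 level was 3.59 in D+1 IR, 3.25 in D+1 IR without that library and 3.37 in control. For Hrc this mean was -1.33 in D+1 IR and -0.66 in D-3 IR. It was -1.34 in D-3 IR without libraries 10 and 15, and -1.64 in D+1 IR without library 3. These values were computed after the relation with the smooth muscle markers had been seen.

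On the same scale, the correlation with the skeletal muscle markers is also a description. It was highest for Hrc (r = 0.81, rho = 0.44), Des (r = 0.72, rho = 0.56), Ldb3 (r = 0.69, rho = 0.67), Myo18b (r = 0.64, rho = 0.75) and Synpo2l (r = 0.52, rho = 0.38). Hrc had 2.78 and 1.49 CPM per 1000 CPM of smooth muscle markers in the D-3 IR libraries 10 and 15 and 1.45 in the D+1 IR library 3, and 0.774 or less in the other 16. For Des the same 3 libraries had 26.7, 21.3 and 49.4, and the other 16 had 14.7 or less. The control library 5 had nearly the skeletal muscle marker sum of the D+1 IR library 3 (1126 and 1155 CPM). Its values were 0.625 for Hrc and 14.1 for Des. The D+1 IR library 3 also had the lowest smooth muscle marker sum, 3234 CPM. Without these 3, r was 0.25 for Hrc, 0.37 for Des, 0.32 for Ldb3, 0.50 for Myo18b and 0.06 for Synpo2l. The lowest values over the 19 libraries were those of Pdlim7 (r = -0.03) and Synpo2 (r = 0.14).

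**Figure D4:**
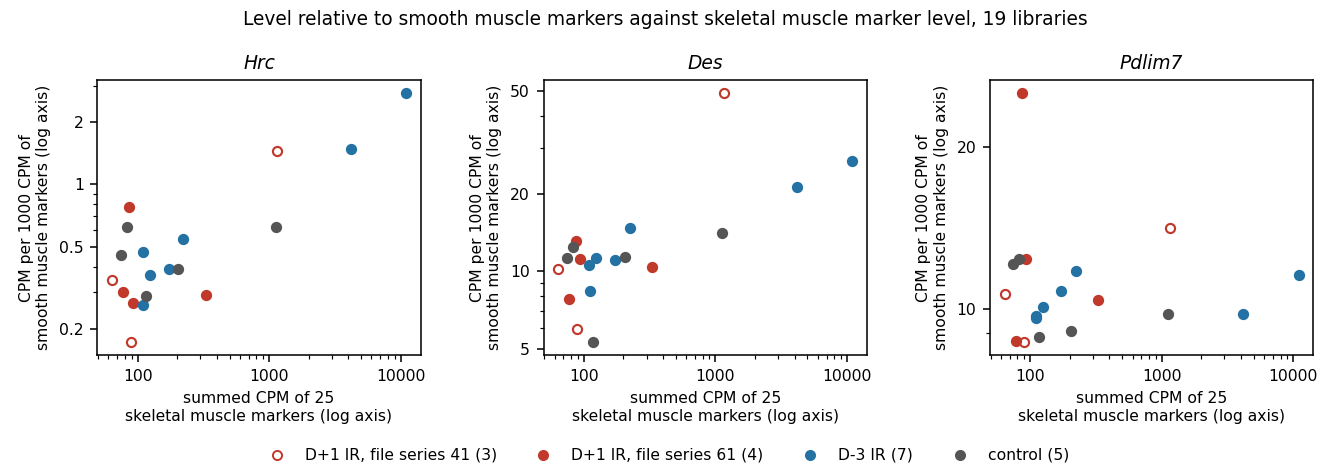
CPM of Hrc, Des and Pdlim7 per 1000 CPM of smooth muscle markers against the summed CPM of 25 skeletal muscle markers (both log axes), 1 point per library, with open points for the D+1 IR libraries 1, 2 and 3. Hrc and Des are highest in 3 of the libraries at the right, D-3 IR 10 and 15 and D+1 IR 3. The control library 5, level with D+1 IR 3 on the horizontal axis, has 0.625 for Hrc and 14.1 for Des. Pdlim7 is highest in the D+1 IR library 20, at 25.2.

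The members varied together. Over the 45 pairs, the r of log2 CPM over the 19 libraries was between 0.61 for Synpo2 with Hrc and 0.97 for Synpo2 with Pdlim3, with a median of 0.84, and with the group means taken off the median was 0.72. Ldb3 with Pdlim3 reached 0.95 and Des with Myo18b 0.92. Synm and Hrc were the least like the rest, with a median r of 0.76 each. These values are descriptions, since the same libraries entered the choice of members.

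Of the 17607 other genes tested, 132 had an r over 0.9 with the mean standardized level of the members over the 19 libraries, 11 of the 20 smooth muscle markers among them, and the median of all was -0.02. The 10 most alike were Tpm1 (r = 0.97), Mmp17 (0.97), Myom1 (0.96), Sgca (0.96), Map3k7cl (0.96), Jph2 (0.96), Dusp27 (0.95), Ky (0.95), Asb2 (0.95) and Speg (0.95). These genes were picked for likeness to members of which several were chosen for low D+1 IR levels. Nothing is therefore read from their group means. Tpm1, a tropomyosin, averaged 696 CPM in D+1 IR and 1476 CPM in D-3 IR, against 1321 CPM in control libraries. Ky, a protein that binds at the Z-disc, averaged 3.69 CPM in D+1 IR and 12.3 CPM in D-3 IR, against 10.6 CPM in control libraries. Within the libraries of series 61 the r of these 10 was between 0.92 and 0.97.

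Other genes of the same or related structures were read from lists that hold none of the members. The lists were chosen with earlier results of these data known, so no excess over the share of all genes is read from the counts. Of 41 other genes of the Z-disc or sarcomere, 37 had a lower level in D+1 IR compared with D-3 IR, with a median log2 fold change of -1.16. With edgeR 0 of them passed at an adjusted p under 0.05, and 24 were lower at an unadjusted p under 0.05, as were 6.71% of all genes. Against control 34 were lower, with a median of -0.64, and 6 at an unadjusted p under 0.05, as were 4.84% of all genes. The most abundant of the list were Csrp1, Actn1, Fhl1 and Actn4. Actn1, an alpha-actinin, averaged 518 CPM in D+1 IR, 1156 CPM in D-3 IR, against 1030.1 CPM in control libraries, with log2 fold changes of -1.16 against D-3 IR and -0.99 against control. For D-3 IR against control 35 of the 41 were positive with a median of 0.25, and 1 was higher at an unadjusted p under 0.05, as were 0.5% of all genes. The list includes markers of skeletal muscle, which were highest in the D-3 IR libraries 10 and 15.

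The relatives of single members were read in the same way, with the same limit on the counts. Of all genes, 6.71% were lower in D+1 IR against D-3 IR at an unadjusted edgeR p under 0.05, and 4.84% against control. Compared with D-3 IR, all 4 other PDZ-LIM genes had a lower level in D+1 IR, with a median of -0.54, and 1, Pdlim1 (-0.90), at an unadjusted edgeR p under 0.05. Synpo, the relative of Synpo2, was at -1.18 against D-3 IR and -1.09 against control, both with an unadjusted p under 0.05 only. Of 24 other intermediate filament and linker genes, 17 had a lower level in D+1 IR compared with D-3 IR, 6 of them at an unadjusted p under 0.05, with a median of -0.43. Vim, vimentin, the filament protein of non-muscle cells and of vascular smooth muscle, was at -0.62 against D-3 IR and -0.58 against control. Of 18 sarcoplasmic reticulum partners of Hrc, 17 were lower, 5 at an unadjusted p under 0.05, with a median of -0.53, and Jph2, a junctophilin, was at -1.27 whereas Atp2a2, the calcium pump, was at -0.41. Of 8 tested genes on the list of muscle ubiquitin ligase genes, which also holds the substrate gene Irs1 (-0.30), 7 were lower, 4 at an unadjusted p under 0.05, with a median of -0.93, and Fbxo32, the ligase atrogin-1, was at -1.03. Of 5 myosin relatives of Myo18b, 4 were lower, 1 at an unadjusted p under 0.05, with a median of -0.22. Myo18a, its close relative, was at -0.09. None of the genes in these lists passed at an adjusted p under 0.05 by edgeR in any contrast. The lists of reticulum partners and of ligases also hold genes of skeletal muscle, whose markers were highest in the D-3 IR libraries 10 and 15. The part of skeletal muscle RNA in these counts was not tested.

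The marker lists of cell types were read from the same fit, in which 6.71% of all genes were lower in D+1 IR against D-3 IR at an unadjusted p under 0.05. Against control this share was 4.84%. The marker lists too were chosen with earlier results of these data known, so no excess over these shares is read from the counts. Of the smooth muscle markers 19 of 20 had a lower level in D+1 IR compared with D-3 IR, 16 of them at an unadjusted edgeR p under 0.05, with a median log2 fold change of -1.09, and 19 of 20 had one against control, 10 at an unadjusted p under 0.05, with a median of -0.93. Acta2, smooth muscle actin, averaged 4800.4 CPM in D+1 IR, 10578 CPM in D-3 IR, against 9646 CPM in control libraries. Of 23 tested skeletal muscle markers 22 had a lower level in D+1 IR compared with D-3 IR (median -3.15, 14 at an unadjusted p under 0.05). In D-3 IR compared with control 22 had a higher level (median 2.85, 1 at an unadjusted p under 0.05, as were 0.5% of all genes). Their sum was uneven within D-3 IR, at 10962 and 4173 CPM in libraries 10 and 15 and between 110 and 223 CPM in the others. The median sum was 172 CPM in D-3 IR, 116 CPM in control and 89.1 CPM in D+1 IR libraries. Against D-3 IR, white adipocyte markers were higher in D+1 IR in 10 of 10 (median 0.76, 0 at an unadjusted p under 0.05, which held for 4.75% of all genes), and brown adipocyte markers in 8 of 8 (median 1.09, 0). Erythroid markers were lower in 9 of 9 (median -3.08, 9), those of cardiac muscle in 8 of 9 tested (median -0.59, 4), and those of macrophages higher in 10 of 10 (median 0.70, 0). Sympathetic neuron and adrenal medulla markers were higher in 10 of 10 (median 1.39, 0), fibroblast markers in 3 of 8 (median -0.21, 0) and endothelial markers in 5 of 8 (median 0.12, 0). The part of these cell types in the levels of the members was not tested.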

How the data were processed

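Abdominal aortas were sequenced as 19 bulk RNA libraries. The authors aligned reads with STAR 2.7.9a to GRCm38 after FastQC, per the labels, and deposited whole-number counts per gene for each library, not normalized. The unstranded counts were used, since both strands held nearly equal counts. Groups came from the sample labels. The 10 members and all gene lists were chosen with earlier results of these data known. Named genes were all members, the 10 genes most alike over the libraries and, of each list, up to 4 tested genes of highest mean CPM plus Acta2, Myh11, Acta1 and Ckm. edgeR 4.0.16 (R 4.3.3) was run with filterByExpr, TMM factors and the quasi-likelihood F-test on 3 groups, with Benjamini-Hochberg adjustment over 17617 genes, and the script was tested on simulated counts. Log2 CPM used a prior count of 2. RLE factors, no filter, DESeq2 1.42.0, limma 3.58.1 voom, the newer quasi-likelihood method, fits of 2 groups only, a prior count of 0.5 and leaving out libraries were tried. The correlation between the muscle marker sums was tested with 100000 permutations (scipy 1.17.1), and those of the members were not tested. The mice are taken as separate, but the labels do not say how many aortas a library held, so p-values measure the spread between these libraries. Coordinates and exon lengths are from GENCODE M21 (GRCm38). The gene identifiers in the files carry a later version than in M21 for all 10 members, so the authors' annotation was another release. With at least 25839001 counts per library, counting error is small beside the spread between libraries.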

Additional observations from a re-analysis of the deposited data

Results flagged for a closer look

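Of 30 groups of member values, 4 held 1 library that stood apart by Dixon's test. For independent groups of normally spread values, chance gives that in about 1 of 20 groups. The test was run on CPM and the members vary together, so no excess can be read from this count. Synpo2l had 23.7 CPM in the control library 6, against a control median of 8.54 CPM, and Synm had 132 CPM in the same library, against a control median of 63.2 CPM. This library also had the highest smooth muscle marker sum, 55717 CPM. Hrc had 71.7 CPM in the D-3 IR library 10, against a D-3 IR median of 15.3 CPM, in the library with the most skeletal muscle marker RNA (10962 CPM). Fbxo40 had 21.8 CPM in the D+1 IR library 19, against a D+1 IR median of 5.401 CPM, and that library was within the range of the other D+1 IR libraries of series 61 for Des, at 165 CPM.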

How the results depend on the processing

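The direction of every member in both contrasts of D+1 IR was kept in every edgeR, DESeq2 and limma fit run. These fits reuse the libraries that entered the choice of members, so nothing is read from this. Synm against control came as near to 0 as -0.07 when 1 library was left out. Scaled to the smooth muscle markers, Synm (0.71) and Pdlim7 (0.21) were positive against D-3 IR, and so were Des (0.22), Synm (0.79) and Pdlim7 (0.22) against control. Without the D+1 IR library 3, the mean scaled log2 level of Des was 3.25 in D+1 IR, below the 3.37 of control. Genes called numbered 2 for D+1 IR against control with DESeq2, and 10 and 2298 for D+1 IR against D-3 IR with DESeq2 and limma voom. In the split of D+1 IR by file series, 2 genes were called with RLE factors and 302 genes (1.62%) with DESeq2. Of these 302, 1 was a member (Pdlim7, -1.50), which is no test of it, since these libraries entered the choice of members. Between 0 and 26 genes were called by edgeR when 1 library was left out, 26 without the D+1 IR library 20. Members under -1 against control numbered between 4 and 9 of 10 when 1 library was left out, 4 when the file series 41 was dropped, and 4 when the 3 libraries richest in skeletal muscle marker RNA were. Without those 3, Hrc was at -1.38 against D-3 IR. For D-3 IR against control the sign turned for Synpo2 (-0.029 without the D-3 IR library 11), Pdlim7 (-0.0088) and Fbxo40 (-0.019, both without the control library 4), none of them called. Leaving out 1 library gave up to 0.59 for Synpo2, 0.48 for Pdlim7 and 0.62 for Fbxo40. In the split, Synm turned to -0.15 without the D+1 IR library 2 and to -0.17 without the D+1 IR library 20, and it was at most 0.27. The cause of these changes was not tested. The settings that left out the 3 libraries, and the scaling to smooth muscle markers, were chosen after seeing the data. No paired analysis was possible because the groups share no replicate number. The spread between libraries was wide (common biological coefficient of variation 0.591), and the lowest count of a member in a library was 41, that of Synpo2l in the D+1 IR library 3.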

Other observations

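Relative to the smooth muscle markers, some members had values in D+1 IR libraries above those of the other libraries. These libraries, 1, 2, 3 and 20, had marker sums of 6883, 13600, 3234 and 5499.9 CPM, against a median of 23959 CPM over all libraries. Before scaling, Des (159.6 CPM) and Ldb3 (18.9 CPM) in library 3 were below their medians over all libraries, 270.3 and 75.9 CPM. Pdlim7 in library 20 (139 CPM) was below its median of 256 CPM. Unscaled Synm was 59.3, 72.7 and 39.4 CPM in libraries 1, 2 and 3, with a median of 65.7 CPM. Des had 49.4 CPM per 1000 CPM of smooth muscle markers in the D+1 IR library 3 and at most 26.7 elsewhere, and Ldb3 had 5.83 there and at most 4.67 elsewhere. Pdlim7 had 25.2 CPM per 1000 CPM of smooth muscle markers in the D+1 IR library 20 and between 8.65 and 14.1 in the other 18 libraries. Synm had 8.62, 5.35 and 12.2 in the D+1 IR libraries 1, 2 and 3, between 2.07 and 4.77 in the other D+1 IR libraries, between 1.99 and 4.82 in the D-3 IR libraries and between 2.15 and 4.72 in the control libraries. The Pdlim3 value, in contrast, was between 4.73 and 10.1 in all 19 libraries. These values were picked after they had been seen and were not tested.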
